A study of Homo sapiens with 6 samples.

Results

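The genes described here are 10 that encode surface and mucus proteins of the colon epithelium: CEACAM1, CEACAM5, CEACAM6, CEACAM7, MUC1, MUC2, MUC12, MUC13, TFF3 and AGR2. Their probe sets were taken as those annotated to exactly 1 gene symbol, that symbol being one of the 10. This gave 23 probe sets of the 54613 that were tested, and each of the 10 genes had at least 1. RNA had been measured on Affymetrix HG-U133 Plus 2.0 arrays in SW480, an established cell line from a human colorectal adenocarcinoma. The labels give 3 biological replicates transfected with CPEB3, which encodes a protein that binds cytoplasmic polyadenylation elements of mRNAs and regulates their translation, and 3 of a negative control (NC). All cells were grown in medium with fetal calf serum, and the labels give no vector, dose, time after transfection, culture or day, so that the p-values reflect only how far these samples scatter, which may be technical.

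CEACAM proteins are immunoglobulin-like cell adhesion molecules of the carcinoembryonic antigen family. CEACAM1 spans the membrane and can carry inhibitory signals through its cytoplasmic tail, whereas CEACAM5 (carcinoembryonic antigen itself, a serum marker in colorectal cancer), CEACAM6 and CEACAM7 are held in the membrane by a lipid anchor. Mucins are heavily O-glycosylated proteins. MUC1, MUC12 and MUC13 stay on the cell surface, whereas MUC2 is secreted by goblet cells as the gel of the colon's mucus layer. TFF3 is a small trefoil peptide secreted with it, and AGR2 is a protein disulfide isomerase of the endoplasmic reticulum needed for making MUC2.

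Each value is the log2 of 1 normalized intensity per probe set and array, and the medians of the 6 arrays lay between 3.89 and 3.93. CPEB3 mRNA went against the labels. It was lower in the arrays labelled CPEB3 at 3 of its 4 probe sets, by up to 1.44 on the log2 scale, and at the fourth, the brightest, the difference was 0.05 (95% interval -0.10 to 0.20). The position of these probe sets relative to a construct was not analysed here. The groups are therefore named by their labels, on which every direction rests. Adjusted p values are those of limma after Benjamini-Hochberg adjustment over all probe sets, with a threshold of 0.05. Where each gene has 1 value, as in the gene lists, the adjustment is over all genes. All 10 of the epithelial cell markers examined, among them EPCAM, CDH1 and KRT18, lay above the array median on every array.

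The comparison asked whether transcript levels of these surface genes differ in cells labelled as transfected with CPEB3. CEACAM1 fell at 2 of its 5 probe sets, MUC12 rose at 1 of its 2, and the other 20 probe sets, which cover all 10 genes, did not pass the threshold. That made 3 of 23 probe sets, or 13%, where 14.4% of all probe sets were called (6.59% higher and 7.86% lower), so that the share among these genes was near the background. With spike-in centring, in which the mean of the hybridization controls was made equal on all arrays and which moved the median of all probe sets up by 0.18, 9 of the 23 were called (8 higher and 1 lower), beside 17876 higher and 1910 lower over the whole table. The groups did not overlap in 5 of the 23 probe sets, or 21.7%, where this held for 32.1% of all probe sets. The median difference of the 23 was 0.07, against 0.02 over all probe sets. With 1 probe set per gene, the one with the highest mean, 0 of the 10 genes passed limma's threshold (1, MUC1, at an unadjusted p under 0.05), where 23.3% of 19775 genes did. The groups did not overlap in 2 of the 10 genes, MUC1 and AGR2, where this held for 39.1% of all genes.

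**Figure D1:**
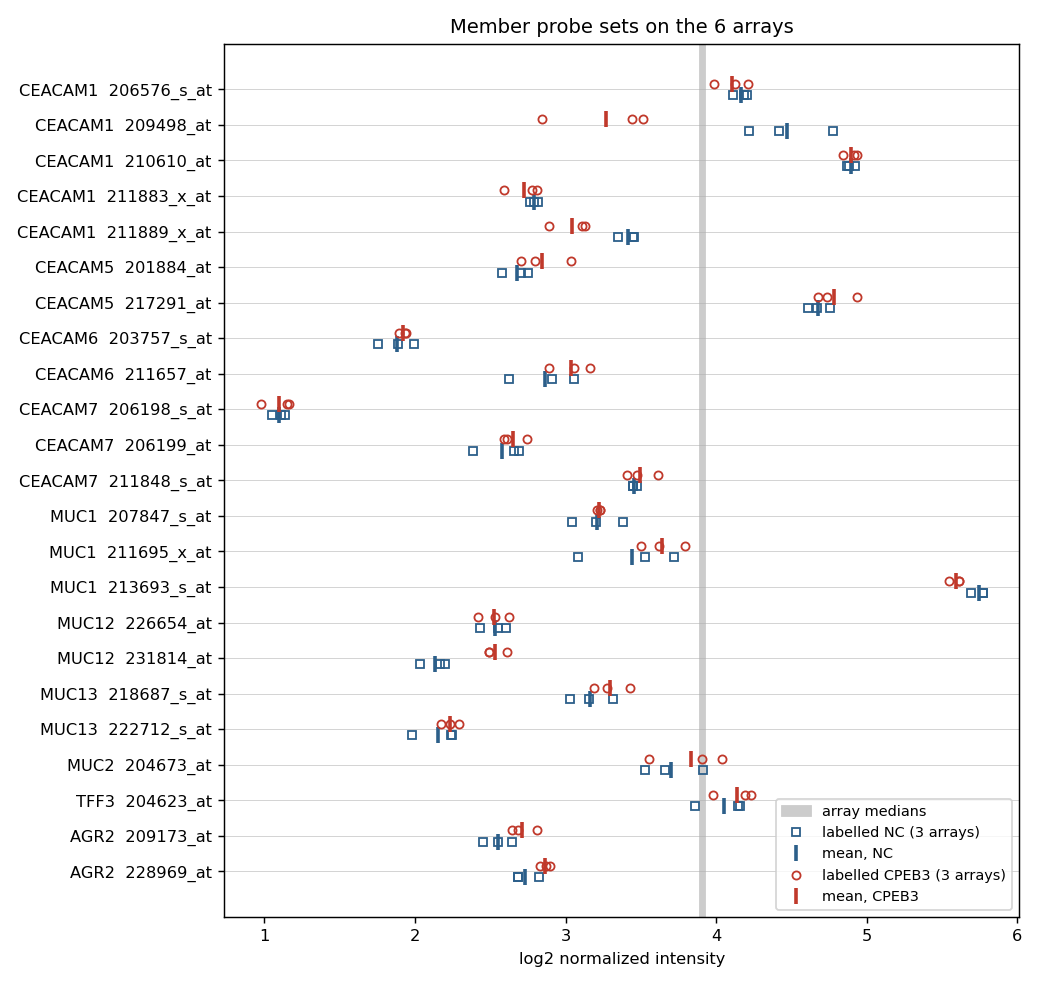
The log2 normalized intensity of the 23 probe sets (rows) on each of the 6 arrays, with circles for the 3 arrays labelled CPEB3, squares for the 3 labelled NC, vertical ticks for group means and a grey band for the medians of the arrays (3.89 to 3.93). Groups lie apart at 5 probe sets, most widely at CEACAM1 209498_at, and 16 probe sets lie left of the band on every array.

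Most of these transcripts were dim. Of the 23 probe sets, 16 lay below the array's own median on all 6 arrays and 4 lay above it on all 6, namely 206576_s_at and 210610_at of CEACAM1, 217291_at of CEACAM5 and 213693_s_at of MUC1. Detection calls were not used here, so it was not tested which of the dim probe sets exceed background, and a fold change of a dim transcript can be understated. Among all probe sets whose mean was at or below the median one, 4.8% were called, against 24.1% of the brighter ones. The 3 called probe sets of these genes were all on the dim side, with 209498_at of CEACAM1 close to the middle. They made 16.7% of the 18 probe sets of these genes on that side, and 0 of the 5 brighter ones were called.

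CEACAM1 had the largest difference among the 10 genes, at probe set 209498_at. Its log2 intensity was 3.51, 2.84 and 3.44 in the CPEB3-labelled arrays and 4.22, 4.77 and 4.42 in the NC-labelled arrays. All 3 of the former were lower than any of the latter, and the second array labelled CPEB3 was the lowest. The means were 3.27 ± 0.37 and 4.47 ± 0.28 (SD, n = 3 each), so that the probe set fell 2.31-fold (difference -1.205, SE 0.18, 95% interval -1.62 to -0.79; limma, adjusted p = 0.00213). The difference stayed between -1.33 and -0.99 when each array in turn was left out, and was -1.03 with spike-in centring. On the arrays labelled CPEB3 it lay below the array median, and on those labelled NC above it.

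The probe sets of CEACAM1 did not move alike. The dim 211889_x_at read 2.89, 3.11 and 3.13 in the CPEB3-labelled arrays and 3.45, 3.45 and 3.35 in the NC-labelled arrays. It fell by 0.37 (SE 0.08; limma, adjusted p = 0.0138), a call that was lost with spike-in centring (-0.19; limma, adjusted p = 0.137). Probes of such "_x_at" sets can match other transcripts, and CEACAM genes are alike in sequence. The brightest CEACAM1 probe set, 210610_at, showed no such gap: 4.91, 4.84 and 4.94 in the arrays labelled CPEB3 overlapped 4.87, 4.89 and 4.93 in those labelled NC. Its difference was 0.00 (95% interval -0.14 to 0.15; limma, adjusted p = 0.978). The groups also overlapped at 206576_s_at (difference -0.06, 95% interval -0.23 to 0.11) and at the dim 211883_x_at (-0.07, 95% interval -0.23 to 0.10).

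These probe sets were also set against one another within each array. The log2 value of 209498_at minus that of 210610_at was -1.40, -1.999 and -1.49 in the CPEB3-labelled arrays and -0.65, -0.11 and -0.51 in the NC-labelled arrays. The gap between the groups was -1.21 (95% interval -1.59 to -0.83), and a constant that scales a whole array leaves it as it is. For the interval, limma was fitted with this difference as 1 more row beside the single probe sets. Its variance was therefore drawn toward those of single probe sets, and the interval may be too narrow. A two-sided exact permutation test gave p = 0.1, the smallest that 3 against 3 arrays can give, or 0.433 adjusted over the 13 such pairs of probe sets within the 10 genes. As a gene, CEACAM1 therefore depended on the probe set that stood for it. The brightest one gave 0.00, the mean of all 5 gave -0.34 (limma, adjusted p = 0.00393) and the most variable one gave -1.205 (limma, adjusted p = 0.00132). These adjusted p values are from fits over 19775 genes, not over all probe sets. Which transcript variants or regions each probe set reads was not analysed here.

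**Figure D2:**
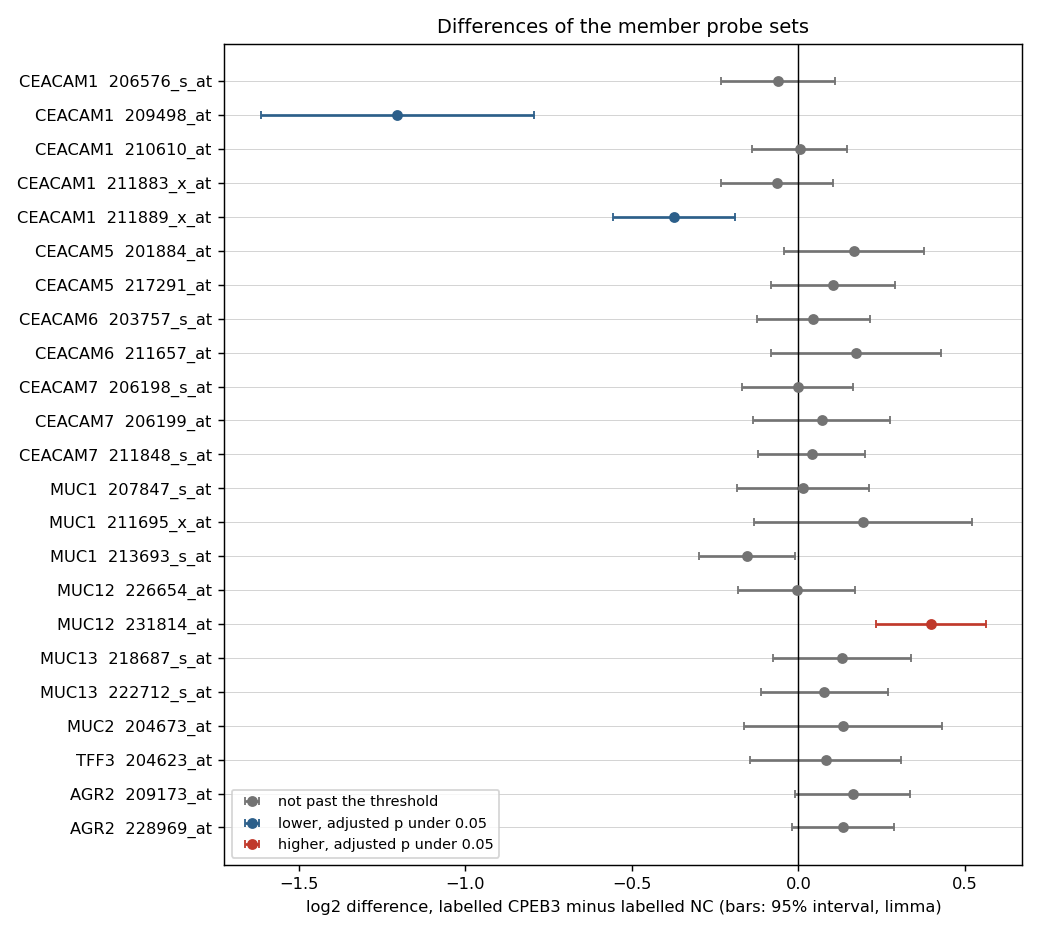
The log2 difference, arrays labelled CPEB3 minus arrays labelled NC, of each of the 23 probe sets (rows), with its 95% interval from limma (n = 3 per group). The 2 CEACAM1 probe sets that fell (-1.205 and -0.37) and the MUC12 probe set that rose (0.40) are coloured, and the intervals of the other 20 reach from -0.30 to 0.52; with spike-in centring the -0.37 lost its call.

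CEACAM1 is known to be induced by interferons, in part through the transcription factor IRF1, which binds repeats of GAAA. At 202531_at, the 1 of its 2 probe sets with the higher mean, IRF1 was 5.52 ± 0.07 under the CPEB3 label and 7.00 ± 0.05 under the NC label (SD, n = 3 each; limma, adjusted p = 1.23e-06). Its part in the CEACAM1 difference was not tested, and IRF1 was chosen after its values were seen. The promoter of CEACAM1 is shown because it differs from those of its relatives at such a repeat. Sequences were taken from RefSeq (GRCh38.p14), which held promoters for 9 of the 10 genes, all but TFF3. The 70 bases that lie 150 to 81 bases before the CEACAM1 start (chr19:42528562-42528631, minus strand) are given with the stretches that align to them in CEACAM5 (chr19:41708470-41708536, plus strand), CEACAM6 (chr19:41755371-41755441, plus strand) and CEACAM7 (chr19:41688358-41688428, minus strand), 5′ to 3′ on the gene's strand, with capitals for a match to GAAA, any 2 bases and GAAA.
CEACAM1: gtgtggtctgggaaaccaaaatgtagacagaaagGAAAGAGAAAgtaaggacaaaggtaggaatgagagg
CEACAM5: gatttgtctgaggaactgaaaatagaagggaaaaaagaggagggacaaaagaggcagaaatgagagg
CEACAM6: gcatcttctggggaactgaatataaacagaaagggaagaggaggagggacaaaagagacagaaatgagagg
CEACAM7: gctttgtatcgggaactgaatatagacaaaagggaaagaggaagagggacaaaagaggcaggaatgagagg

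The match in CEACAM1 begins 116 bases before the start, and CEACAM1 was the only 1 of the 9 genes with this repeat on either strand of its 300-base promoter window. Over all 35116 promoters of that length 3.57% held it. The 250 bases before the start were aligned, and gaps were left out of the identity. The CEACAM1 promoter was 72.0% identical to that of CEACAM5 (170 of 236 aligned bases), 74.4% to CEACAM6 (177 of 238) and 75.8% to CEACAM7 (182 of 240). At the bases aligned to the match, CEACAM7 had 9 of 10 identical (gaaagaggaa), CEACAM5 7 of 9 and CEACAM6 7 of 9. Among the other motifs searched on both strands, CACGTG (7.26% of all promoters), which does not overlap the repeat, was found in CEACAM5 and CEACAM6, GGGCGG (45.0%) in CEACAM1, CEACAM6, MUC1 and MUC2, TATAAA (11.5%) in CEACAM6, MUC1 and MUC12, and TTC, any 3 bases and GAA (7.66%) in none of the 9. A match describes these letters and is not evidence of a bound site.

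None of the lipid-anchored CEACAM genes had a probe set past limma's threshold. CEACAM5 at its brighter probe set, 217291_at, read 4.67, 4.74 and 4.94 in the CPEB3-labelled arrays and 4.75, 4.67 and 4.61 in the NC-labelled arrays. The groups overlapped, and the difference was 0.10 (95% interval -0.08 to 0.29; limma, adjusted p = 0.473). Its dim probe set 201884_at differed by 0.17 (95% interval -0.04 to 0.38). Both passed the threshold as higher with spike-in centring (0.28 and 0.35). With any 1 array left out, neither passed, and the differences lay between 0.03 and 0.16 and between 0.07 and 0.24.

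CEACAM6, which lies beside CEACAM5 on chromosome 19, was dim at both probe sets. At 211657_at the values were 3.16, 3.06 and 2.89 in the CPEB3-labelled arrays and 3.05, 2.91 and 2.63 in the NC-labelled arrays, which overlap (difference 0.17, 95% interval -0.08 to 0.43), and it passed as higher with spike-in centring (0.35) and lay between 0.05 and 0.27 with any 1 array left out. At 203757_s_at the means were 1.92 ± 0.03 and 1.88 ± 0.12 (SD, n = 3 each). CEACAM7, the neighbour of CEACAM5 on the other side, ranged from 0.97 to 1.17 over all 6 arrays at 206198_s_at, and its 3 probe sets differed by between -0.00252 and 0.07. The widest interval among these 3 was -0.14 to 0.28. CEACAM3 and CEACAM8, which granulocytes carry, and CEACAM4, CEACAM19 and CEACAM21 were also measured, and 0 of these 5 passed limma's threshold (0 at an unadjusted p under 0.05), with differences between -0.02 and 0.08. With spike-in centring 1 of the 5 passed as higher.

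Among the mucins of the cell surface, MUC1 had a probe set above the array median on all 6 arrays, 213693_s_at. It read 5.61, 5.61 and 5.55 in the CPEB3-labelled arrays and 5.69, 5.77 and 5.77 in the NC-labelled arrays. The groups did not overlap, and the arrays labelled CPEB3 were the lower ones, yet the difference of -0.15 (SE 0.06, 95% interval -0.30 to -0.01) did not pass the threshold (limma, adjusted p = 0.152). It passed with 1 probe set per gene when dim genes were left out (limma, adjusted p = 0.0417 over 12932 genes) and turned to 0.03 with spike-in centring. The other MUC1 probe sets differed the other way: 211695_x_at by 0.19 (95% interval -0.13 to 0.52) and 207847_s_at by 0.01 (95% interval -0.18 to 0.21). With spike-in centring 211695_x_at passed as higher (0.37), and with any 1 array left out it lay between 0.01 (without the second array labelled NC) and 0.33 (without the third). It had the widest scatter of the 20 probe sets that did not pass, with 3.53, 3.09 and 3.72 in the arrays labelled NC.

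MUC12, a large transmembrane mucin of the colon, rose at a dim probe set, 231814_at. The values were 2.49, 2.49 and 2.61 in the CPEB3-labelled arrays and 2.03, 2.20 and 2.17 in the NC-labelled arrays. Every array labelled CPEB3 was higher than every array labelled NC. The rise was 0.40 (SE 0.07, 95% interval 0.23 to 0.56), or 1.32-fold (limma, adjusted p = 0.00602), and it was 0.35 to 0.43 with any 1 array left out. All 6 values lay below the array median. The other MUC12 probe set, 226654_at, read 2.62, 2.53 and 2.42 against 2.60, 2.43 and 2.55, a difference of -0.01 (95% interval -0.18 to 0.17). Within arrays, 231814_at minus 226654_at was higher by 0.40 in those labelled CPEB3. Its 95% interval of 0.16 to 0.64 was made as for CEACAM1 and may likewise be too narrow. A two-sided exact permutation test gave p = 0.1, the smallest possible, or 0.433 adjusted over the 13 pairs. The neighbouring mucin genes MUC3A and MUC17 differed by 0.16 and 0.05 and did not pass. MUC13, another transmembrane mucin, overlapped between the groups at both probe sets (0.13 with a 95% interval of -0.08 to 0.34, and 0.08 with -0.11 to 0.27). Its probe set 218687_s_at, the former of these, passed as higher with spike-in centring (0.31) and lay between 0.06 and 0.21 with any 1 array left out.

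**Figure D3:**
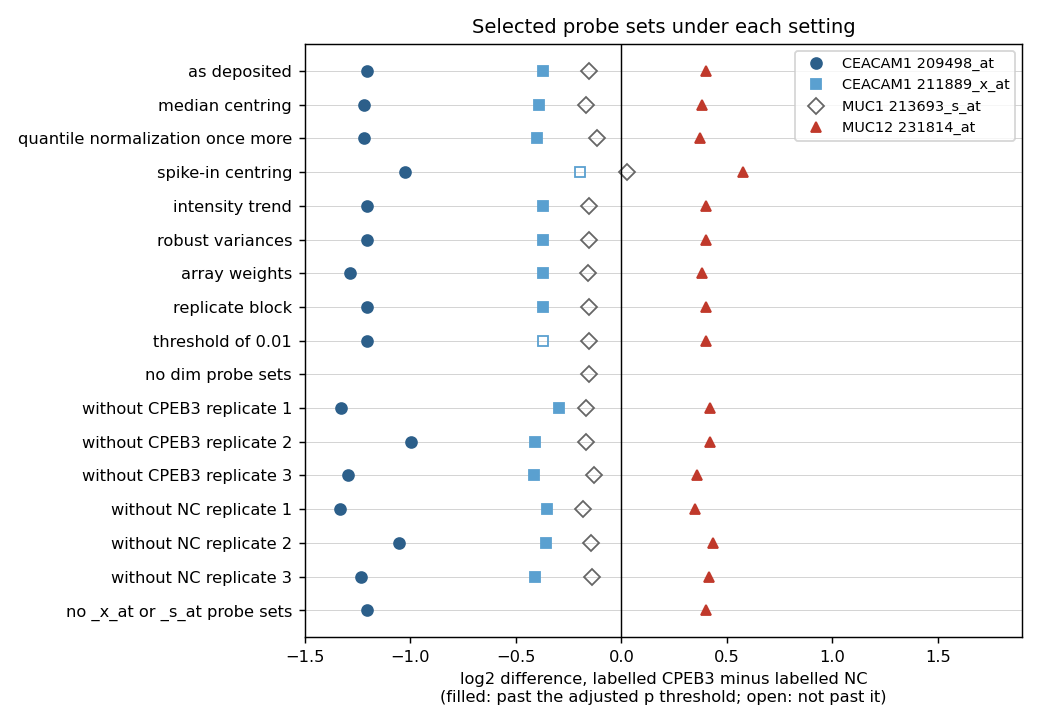
The log2 difference, arrays labelled CPEB3 minus arrays labelled NC, of 4 probe sets (symbols) under each processing setting (rows), filled where it passed the adjusted p threshold and absent where the setting leaves the probe set out. CEACAM1 209498_at stayed between -1.33 and -0.99 and MUC12 231814_at between 0.35 and 0.58, whereas MUC1 213693_s_at turned from -0.15 to 0.03 with spike-in centring.

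The secreted products of goblet cells and the enzyme that serves them did not pass limma's threshold. MUC2 had 1 probe set, 204673_at, with 4.04, 3.91 and 3.56 in the CPEB3-labelled arrays and 3.66, 3.91 and 3.53 in the NC-labelled arrays. These overlap, and the spread within a group (SD 0.25 and 0.19) was larger than the difference of 0.13 (95% interval -0.16 to 0.43; limma, adjusted p = 0.571). Leaving out 1 array moved that difference from 0.03 (without the first array labelled CPEB3) to 0.27 (without the third array labelled CPEB3). TFF3, at 204623_at, read 4.23, 4.19 and 3.98 against 4.16, 4.15 and 3.86, a difference of 0.08 (95% interval -0.15 to 0.31). In both genes the third array of each group was the lowest of its group.

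AGR2 came closer to the threshold. At 228969_at it read 2.87, 2.89 and 2.83 in the CPEB3-labelled arrays and 2.68, 2.68 and 2.82 in the NC-labelled arrays, where the groups did not overlap. The difference was 0.14 (95% interval -0.02 to 0.29), and at 209173_at, where the groups overlapped, it was 0.16 (95% interval -0.01 to 0.34), with adjusted p = 0.237 and 0.208 in limma. With spike-in centring both passed as higher (0.31 and 0.34).

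Together, 15 of the 20 probe sets that did not pass had a difference above 0 and 5 below it. Of the 23 probe sets, called or not, 69.6% had a difference above 0, where this held for 56.3% of all probe sets. At or below the median probe set, the shares were 72.2% of these genes' probe sets and 61% of all. For 19 of the 20 the 95% interval lay within 0.5 of 0 on the log2 scale, the exception being MUC1 211695_x_at.

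The other genes of this epithelial programme were examined in lists with 1 probe set per gene, where 10.9% of all genes rose, 12.5% fell and the median was 0.02. Those shares hold for the values as deposited. With spike-in centring, which moved every difference up by 0.18, 17876 of all 54613 probe sets were higher and 1910 lower. The share over all genes under that setting is not given here, so the list counts for it cannot be set against a background. Of 16 other mucin genes measured, 3 rose and 1 fell (median 0.04). MUC5B (0.28) and MUC5AC (0.24), gel-forming mucins of the MUC2 cluster, rose, as did the transmembrane mucin MUC16 (0.27, dim), and the oviductal glycoprotein gene OVGP1 fell by 0.38; MUC5AC lost its call with median centring and OVGP1 with spike-in centring. With spike-in centring 6 of the 16 were higher and 0 lower. Of 23 goblet cell products and regulators, 2 rose and 1 fell (median 0.06), against 13 higher and 0 lower with spike-in centring. SYTL2, which takes part in vesicle trafficking, rose by 0.35 and BCAS1 by 0.26, whereas the transcription factor FOXA3 fell by 0.37, a call lost with spike-in centring. The trefoil genes TFF1 and TFF2, the latter next to TFF3, differed by 0.01 and 0.06 and AGR3, next to AGR2, by 0.10, none of which passed.

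**Figure D4:**
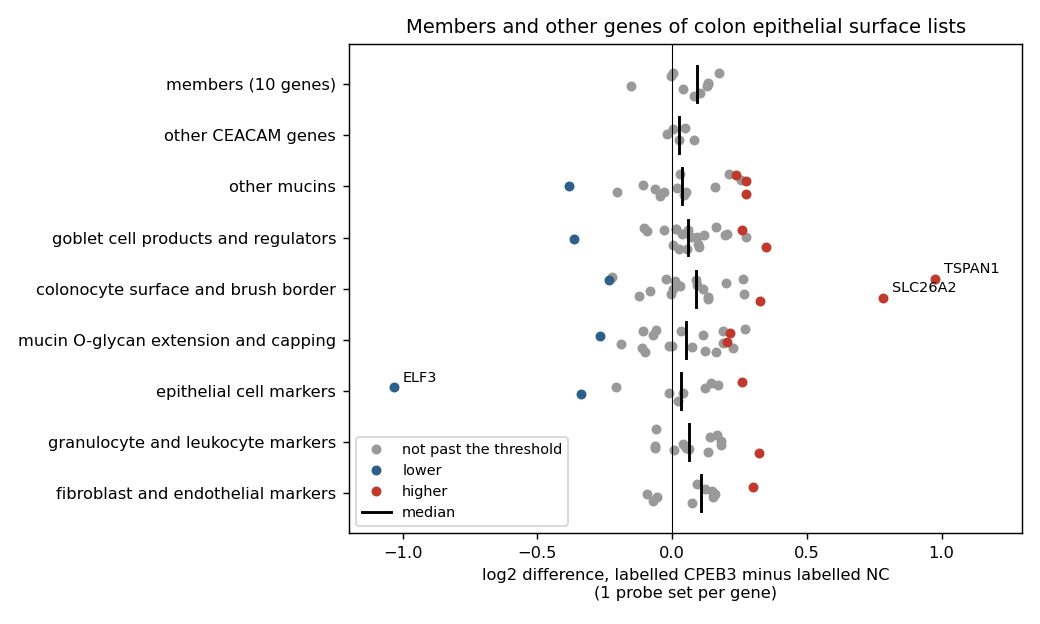
The log2 difference, arrays labelled CPEB3 minus arrays labelled NC, of each measured gene (points, 1 probe set per gene) in the 10 genes and in each other list (rows), coloured where limma's adjusted p was under 0.05, with the median as a black line. None of the 10 genes is coloured, and TSPAN1 (0.97), SLC26A2 (0.78) and ELF3 (-1.03) lie farthest out; with spike-in centring all medians shift up by about 0.18.

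Other colonocyte genes were also called. In a list of colonocyte surface and brush border genes, not all 21 measured genes encode surface proteins. Of these 21, 3 rose and 1 fell (median 0.09), against 11 higher and 0 lower with spike-in centring. The tetraspanin TSPAN1 rose from 5.31 ± 0.03 to 6.29 ± 0.12 (SD, n = 3 each), or 1.96-fold (limma, adjusted p = 2.22e-05), and the sulfate transporter SLC26A2, which supplies sulfate for glycans, from 7.32 ± 0.08 to 8.10 ± 0.05, or 1.72-fold (limma, adjusted p = 4.63e-05). The fatty acid binding protein FABP1, which was dim, rose by 0.33, and the carbonic anhydrase CA2 fell by 0.24, a call lost with spike-in centring and with repeated quantile normalization. Of 20 genes that extend or cap O-glycans, 2 rose and 1 fell (median 0.05): C1GALT1C1, the chaperone of the core 1 enzyme, rose by 0.21 (not past the threshold with median centring) and ST6GALNAC2 by 0.20, and B4GALT5 fell by 0.27 (not past it with spike-in centring, where 10 of the 20 were higher and 0 lower). Among the 10 epithelial markers, KRT18 rose by 0.26, and the transcription factor ELF3 (-1.03) and CLDN4 (-0.34, lost with spike-in centring) fell; with that setting 4 were higher and 1 lower.

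Markers of other cells were given beside these lists because granulocytes also carry CEACAM1 and CEACAM6. Of 13 granulocyte and leukocyte markers measured, 1 rose (ITGAM, 0.32) and 0 fell, and their summed linear intensity was 125.7 to 136.8 in the CPEB3-labelled arrays and 115.5 to 121.0 in the NC-labelled arrays. PTPRC, the common leukocyte antigen, ranged from 1.34 to 1.74, and 3 of the 13 lay above the array median on every array. Of 10 fibroblast and endothelial markers, 1 rose (DCN, 0.30) and 0 fell, with sums of 190.9 to 200.9 and 178.4 to 186.4. With spike-in centring 6 of the 13 and 6 of the 10 were higher, and 0 of either were lower. All arrays were of SW480, a cell line, and the part of other cells in the results was not tested.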

How the data were processed

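The authors deposited a linear-scale normalized intensity for every probe set on each array, made with RMA per the submitters' processing notes; neither the RMA version nor how log2 values became linear is stated there. Array medians were 14.8 to 15.2. RMA makes arrays alike, so a change in total RNA per cell is not measured. Precision is limited by the number of arrays, 6. Groups came from the sample titles.

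The table had 54675 rows, of which 62 control probe sets were left out. Of the rest, 41091 had 1 gene symbol, 1801 several and 11721 none in the platform annotation. Log2 was taken, and limma 3.58.1 in R 4.3.3 compared the groups (lmFit, eBayes, two-sided, group as the only term) over all 54613 probe sets, and over 19775 genes each by its brightest probe set of 1 symbol, with Benjamini-Hochberg adjustment and a threshold of 0.05. Every probe set of the 10 genes is named, with CPEB3 and, per list, up to 4 called genes with the largest change. Neighbours of the 10 genes, IRF1 and other named genes were picked with their values in view. The genes and lists were chosen with earlier results of these data known. Promoters were aligned with Biopython 1.88, and figures drawn with matplotlib 3.10.9. The limma step was tested on simulated data. Alternatives were other scalings, variance models, weights for arrays, a replicate block, a stricter threshold (0.01), other probe set choices and leaving out each array.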

Additional observations from a re-analysis of the deposited data

How the results depend on the processing

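The count of 3 called probe sets was 3 with any 1 array left out (lowest 3, highest 3) and 0 of 10 genes passed likewise (0 to 0). The count of probe sets became 9 (8 higher, 1 lower) with spike-in centring and 0 without dim probe sets, which leaves out all 3. The count of genes became 4 with spike-in centring (CEACAM5, CEACAM6, MUC13 and AGR2, all higher), 1 without dim genes (MUC1, lower), and 2 with the mean or the most variable of a gene's probe sets (CEACAM1 lower, MUC12 higher). The share of all genes called under these settings is not given here. Over all probe sets, calls were 45.6% higher as deposited, 40.5% with median centring, 50.9% with repeated quantile normalization and 90.3% with spike-in centring. The hybridization controls differed by -0.18 (labelled CPEB3 minus labelled NC), so that spike-in centring moved every difference up by 0.18. Why the hybridization controls differed was not tested. The labels do not say whether same-numbered arrays share a culture or day. Their deviations from the group means correlated at 0.01, 0.00121 and 0.09, which cannot settle this. With the replicate block 3 probe sets and 0 genes passed.

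All sign changes were of probe sets that did not pass under any of these settings in the fit over all probe sets. With spike-in centring CEACAM1 206576_s_at became 0.12, CEACAM1 211883_x_at 0.11, CEACAM7 206198_s_at 0.18, MUC1 213693_s_at 0.0255 and MUC12 226654_at 0.17. With median centring CEACAM1 210610_at became -0.0113 and MUC1 207847_s_at -0.00120, the latter -0.0240 with repeated quantile normalization. With array weights CEACAM1 210610_at became -0.00196, CEACAM7 206198_s_at 0.00219 and MUC12 226654_at 0.0113. With 1 array left out, the ranges that cross 0 were -0.11 to 0.00233 for CEACAM1 206576_s_at, -0.0150 to 0.0311 for CEACAM1 210610_at, -0.11 to 0.00151 for CEACAM1 211883_x_at, -0.0161 to 0.102 for CEACAM6 203757_s_at, -0.0365 to 0.0589 for CEACAM7 206198_s_at, -0.0255 to 0.126 for CEACAM7 206199_at, -0.0175 to 0.0848 for CEACAM7 211848_s_at, -0.0704 to 0.100 for MUC1 207847_s_at, -0.0543 to 0.0469 for MUC12 226654_at, -0.00850 to 0.12 for MUC13 222712_s_at and -0.0156 to 0.161 for TFF3 204623_at. CEACAM1 211889_x_at was not past a threshold of 0.01.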
